A study of Mus musculus with 11 samples.

Results

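The genes described here are the replication-dependent histone genes, which supply the core histones H2A, H2B, H3 and H4 and the linker histone H1 for new chromatin. They were followed in splenic T-cells of mice that develop a T-cell leukemia under the human oncogene TCL1A, on 11 whole-transcript microarrays (Affymetrix Mouse Gene 1.0 ST). Members were the rows of the value table that name only genes whose older symbol starts with Hist1h, Hist2h, Hist3h or Hist4h. The platform annotation at hand gave newer symbols, so the older symbols were looked up as RefSeq synonyms through the Entrez gene identifiers. A row is the summary of 1 set of probes. The rule found 52 of 34760 rows, of which 22961 had a gene symbol and were tested, and all 52 were among these. Another 2 rows were left out because they also name other genes. One of those named most of the H2A genes together with H2ax and H3c4, so the H2A class is thinly covered.

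The leukemia arrays came from hemizygous Lckpr-TCL1A+/- mice, in which the proximal Lck promoter drives the transgene in T-lineage cells, and the RNA was from splenic cells enriched for CD8+ T-cells with magnetic beads. The chronic phase group (n = 3) was 12 months old on average, and tumor cells made up 30 to 70% of blood and spleen. The exponential phase group (n = 5) was 15 months old on average, with tumor cells above 80% in blood and above 90% in the spleen, and its blood lymphocytes doubled in a mean of 12 days (SEM 0.8). The wild-type group (n = 3) was of age-matched C57BL/6 mice, each array a pool of 3 mice, and held purified CD3+ pan-T-cells. Cell selection and genotype therefore cannot be told apart in any comparison with wild type. No source used here says whether a leukemia array was of 1 mouse, so the p-values cover only the spread between these arrays, which may in part be technical.

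All values are on the log2 scale after background correction by RMA and quantile normalization, and every array had the same median of 2.30. One array went against its label: in exponential replicate 4 Cd8a, a chain of the CD8 co-receptor, was at 2.96, while the other 4 exponential arrays lay at 7.94 to 8.20. Its Cd4 was at 5.18, where those 4 lay at 2.15 to 2.44. The 5 T-cell markers (Cd3e, Cd3d, Cd3g, Cd2, Thy1) had a median of 7.48 in that array, against 7.62 to 8.32 in the other 10. By 1.5-fold or more below all 3 wild-type arrays were 2 of these markers in exponential replicate 4 and 3 in chronic replicate 3. Cd3e, Cd3d and Cd3g were at 7.48, 7.46 and 9.63 in exponential replicate 4. In chronic replicate 3 they were at 6.85, 6.57 and 8.63, the lowest of the 11 arrays. Most group differences that rest on exponential replicate 4 are given with and without it.

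Replication-dependent histone mRNAs are made in S phase, when the genome is copied, and are degraded when DNA synthesis stops. Most of them end in a conserved stem-loop in place of a poly(A) tail, and the stem-loop binding protein SLBP escorts them through 3′ end processing, export and translation. Their transcription is organized in histone locus bodies around the coactivator NPAT. The genes sit in clusters, and many encode the same protein from nearly identical coding sequence. Of the 70 mouse genes with such an older name in RefSeq, 56 were on chromosome 13, 10 on chromosome 3, 3 on chromosome 11 and 1 on chromosome 6, and 55 were named by at least 1 row.

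The near-identity of the genes shaped what the array could resolve. Of the 52 rows, 31 named a single gene and 21 named several. The H1 class had 5 rows and the H2A class 5 rows, each naming 1 gene. The H2B class had 17 rows, of which 6 shared rows named 14 or 15 genes each. The H3 class had 12 rows, of which 9 named 12 genes each, and the H4 class had 12 rows, of which 4 named 11 genes each. One further row named H2bc6 together with H1f4. Shared rows repeat the same genes, so they are not independent measurements and cannot be assigned to one gene. Below they are called by class and row number. By their mean over all arrays, 36 rows lay above the overall median of 2.30 and 16 at or below it.

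Promoters are shown for 4 single-gene rows on which the array values turn: H1f2, the row with the largest differences from wild type, and H1f5, H2bc8 and H4c4, whose rows were highest in the arrays described below. Each is the 200 bases before the annotated start, 5′ to 3′, from RefSeq for GRCm38.p6. Capitals mark the CCAAT box (CCAAT, or its complement on the other strand), the TATA box (TATAAA) and the octamer of the POU factor Oct-1 (ATTTGCAT). None of the 3 strings contains another.
H1f2, linker histone H1.2, chr13:23738607-23738806, plus strand: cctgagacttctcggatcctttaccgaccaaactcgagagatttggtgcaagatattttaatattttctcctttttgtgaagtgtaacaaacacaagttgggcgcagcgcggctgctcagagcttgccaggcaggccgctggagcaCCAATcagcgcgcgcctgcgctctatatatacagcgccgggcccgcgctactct
H1f5, linker histone H1.5, chr13:21780626-21780825, minus strand: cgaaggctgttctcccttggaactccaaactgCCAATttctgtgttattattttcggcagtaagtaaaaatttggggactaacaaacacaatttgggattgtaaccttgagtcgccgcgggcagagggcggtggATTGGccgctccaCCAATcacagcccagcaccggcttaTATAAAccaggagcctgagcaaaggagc
H2bc8, core histone H2B, chr13:23571200-23571399, plus strand: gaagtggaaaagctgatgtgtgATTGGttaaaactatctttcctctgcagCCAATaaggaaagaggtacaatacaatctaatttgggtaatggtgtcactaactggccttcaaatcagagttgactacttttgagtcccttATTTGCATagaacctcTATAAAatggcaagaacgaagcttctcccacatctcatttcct
H4c4, core histone H4, chr13:23581368-23581567, plus strand: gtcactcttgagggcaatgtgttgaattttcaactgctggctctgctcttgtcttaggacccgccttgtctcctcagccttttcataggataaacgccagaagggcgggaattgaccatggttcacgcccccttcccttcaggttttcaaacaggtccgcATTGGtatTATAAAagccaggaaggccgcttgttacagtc

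Over the 300-base windows of the table (250 bases before the start and 50 after), 63 promoters of 62 histone genes were found. A CCAAT box on either strand was in 85.7% of them, against 37.4% of all 32851 promoters. It was in all 6 H1, all 18 H2A, all 17 H2B and all 10 H3 windows, but in 3 of the 12 H4 windows. The TATA box was in 55.6% of histone windows against 13.6% of all promoters. The octamer was in 22.2% against 1.74%, in 7 of 18 H2A and 7 of 17 H2B windows and in no H1, H3 or H4 window. H2A and H2B genes often lie head to head: 20 of these 35 windows overlapped a window of the other class on the opposite strand, among them 6 of the 14 windows with an octamer, so some matches are the same letters counted for both genes. These matches describe the letters and not binding.

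**Figure D1:**
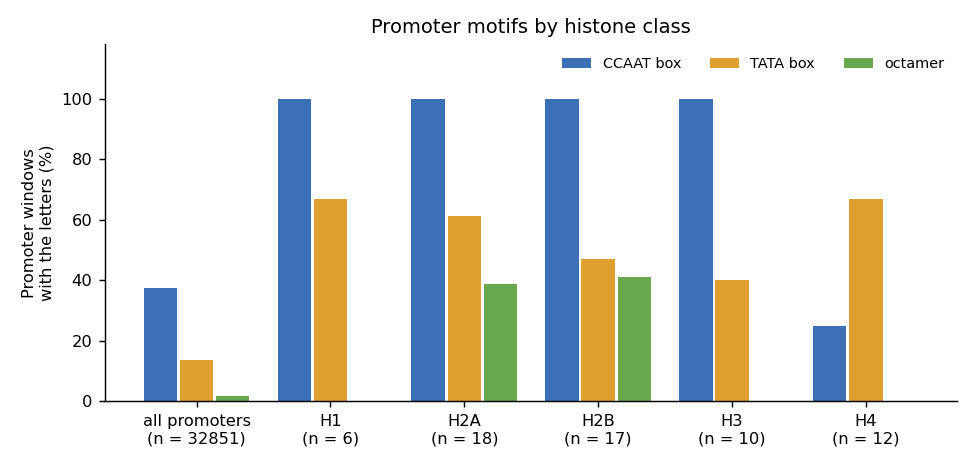
Share of 300-base promoter windows (%) that hold a CCAAT box, a TATA box or the octamer on either strand, for all 32851 promoters of the RefSeq table and for each histone class, with the number of windows under each class. The CCAAT bars reach 100% in H1, H2A, H2B and H3 and 25% in H4, and the octamer bars stand above 0 only for all promoters, H2A and H2B.

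The first question was whether histone rows differ between each leukemia phase and wild type. In chronic phase against wild type 0 of the 52 histone rows were called by limma, at an adjusted p under 0.05 (Benjamini-Hochberg over all rows tested) and a fold of at least 1.5, where 0.196% of all rows were called. In exponential phase against wild type 0 were called, with 0.422% of all rows. In all 8 leukemia arrays against wild type 0 were called, with 0.675% of all rows. Between exponential and chronic phase 0 were called, and 0% of all rows. At an unadjusted p under 0.05, the limma fits held 2 histone rows higher and 2 lower in chronic phase (10.9% of all rows, either direction), 2 higher and 1 lower in exponential phase (10.1%), 1 higher in exponential than in chronic phase (6.27%), and 1 lower in all leukemias (10.6%). The methods' t-test on the same values called 0 histone rows after Benjamini-Hochberg adjustment in each of the 4 comparisons.

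The histone rows as a list had a median log2 difference from wild type of 0.02 in chronic phase and 0.10 in exponential phase, where all rows tested had medians of 0.00 and 0.01. The direction of these medians was set by single arrays. Without chronic replicate 3 the chronic median was -0.08, and without exponential replicate 4 the exponential median was -0.06. For exponential against chronic phase the median was 0.04, and it was -0.18 without exponential replicate 4. By class, the chronic medians ran from 0.01 in H2B to 0.21 in H1, and from -0.13 in H2B to 0.03 in H3 without chronic replicate 3. The exponential medians ran from -0.11 in H1 to 0.29 in H3, and from -0.34 in H1 to 0.10 in H3 without exponential replicate 4. Without that array 3 histone rows were higher and 5 lower than wild type at an unadjusted p under 0.05, 15.4% of them against 11.3% of all rows, and limma called 0.

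The histone rows differed between single arrays of the same phase. The median over all 52 rows was 2.84, 3.14 and 3.00 in the 3 wild-type arrays, 2.76, 3.02 and 3.53 in the chronic arrays, and 2.85, 2.81, 2.73, 4.11 and 2.76 in the exponential arrays. Exponential replicate 4 and chronic replicate 3 thus lay above the other 9 arrays, which spanned 2.73 to 3.14. All rows tested had medians between 2.31 and 2.36 in every array. Exponential replicate 4 had the highest median in each of the 5 classes and chronic replicate 3 the second highest in H1, H2A, H2B, H3 and H4 alike. In exponential replicate 4 the class medians were 4.16 for H1, 3.50 for H2A, 4.45 for H2B, 3.97 for H3 and 3.83 for H4. In chronic replicate 3 they were 3.67, 3.01, 3.62, 3.50 and 3.36 in the same order.

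**Figure D2:**
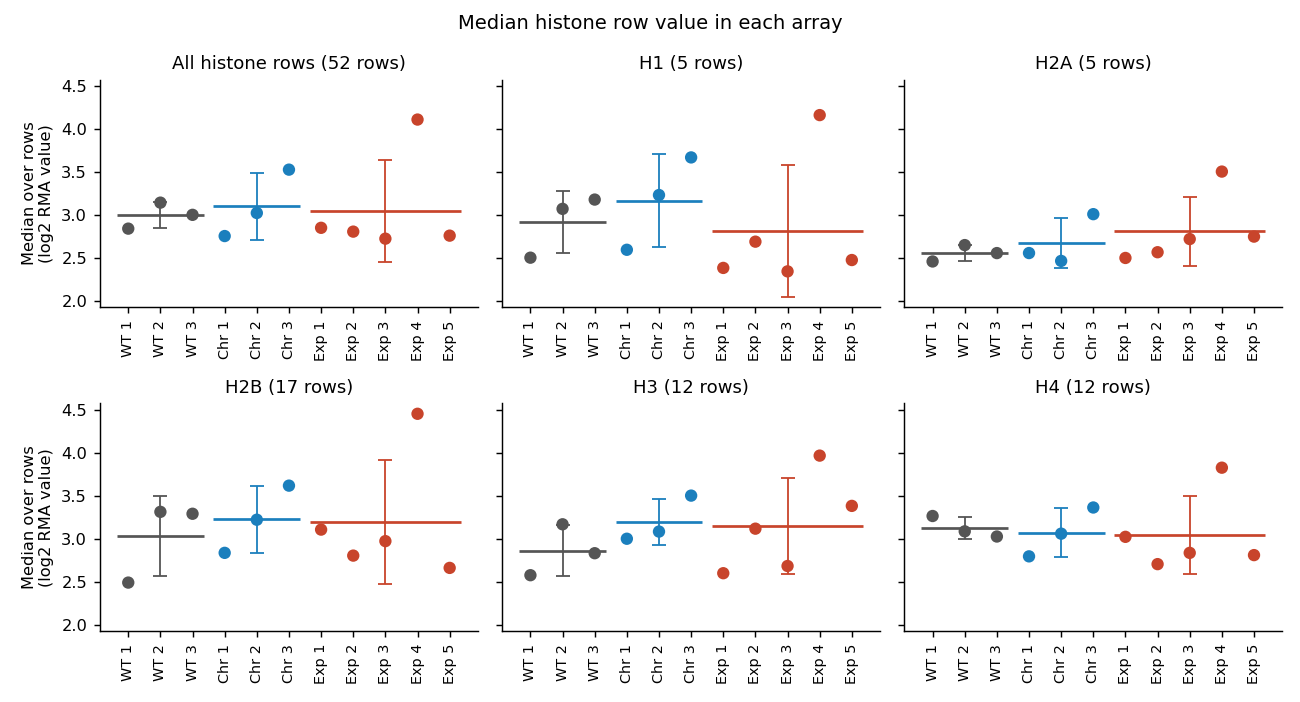
Median log2 value over the histone rows in each of the 11 arrays (WT, wild type; Chr, chronic; Exp, exponential), for all 52 rows and for each class; the vertical axis does not start at 0. Horizontal lines are group means and vertical bars SD (n = 3, 3 and 5), and in every panel Exp 4 is the highest point and Chr 3 the second highest.

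Counted row by row, exponential replicate 4 was the highest of the 11 arrays in 29 histone rows, 55.8% of them, against 11.3% of all rows. Chronic replicate 3 was the highest in 13, 25% against 13.9%. These 2 arrays were together the 2 highest in 25 histone rows, 48.1% against 3.33% of all rows, and the next most frequent pair was so in 5 rows. Exponential replicate 4 exceeded all 3 wild-type arrays by 1.5-fold or more in 26 histone rows, 50% against 3.53% of all rows. Chronic replicate 3 did so in 14, 26.9% against 3.16%. The other leukemia arrays did so in few histone rows: 0 in chronic replicate 1 (3% of all rows), 1 in chronic replicate 2 (2.27%), 2 in exponential replicate 1 (1.58%), 1 in exponential replicate 2 (2.34%), 1 in exponential replicate 3 (1.98%) and 0 in exponential replicate 5 (1.81%). These shares describe single arrays and carry no test.

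**Figure D3:**
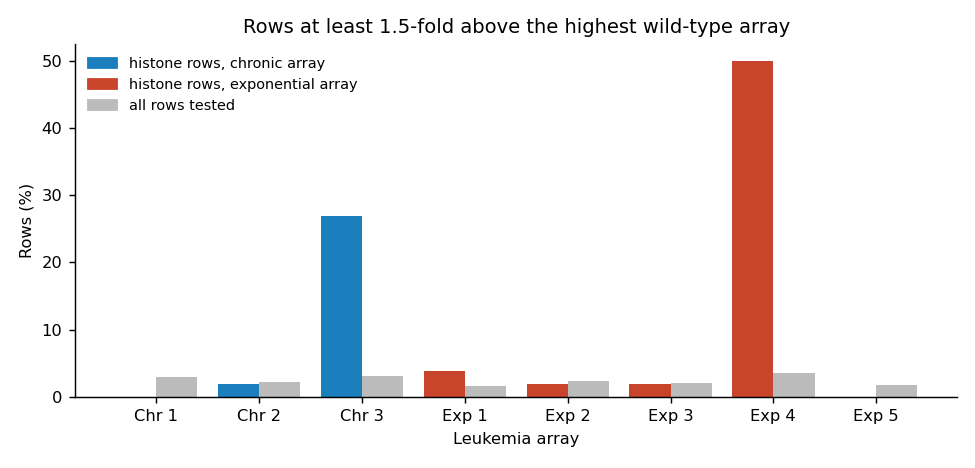
Share of rows (%) that exceed all 3 wild-type arrays by 1.5-fold or more in each leukemia array, for the 52 histone rows (coloured) and for all 22961 rows tested (grey). Exp 4 reaches 50% and Chr 3 reaches 26.9% of the histone rows, whereas the grey bars stay between 1.58 and 3.53%.

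The excess over wild type was seen in every class. In exponential replicate 4 it held 2 of 5 H1, 2 of 5 H2A, 9 of 17 H2B, 7 of 12 H3 and 5 of 12 H4 rows. In chronic replicate 3 it held 1 of 5 H1, 1 of 5 H2A, 3 of 17 H2B, 4 of 12 H3 and 5 of 12 H4 rows. It lay mostly in the brighter rows: 22 of the 26 rows in exponential replicate 4 and 13 of the 14 in chronic replicate 3 had a mean above the overall median. Of all 52 rows, 36 did. That mean includes these 2 arrays, so high values in them raise it. Against the wild-type mean, exponential replicate 4 was higher in 49 of 52 rows, with a median log2 difference of 0.94, and chronic replicate 3 in 38, with a median of 0.46.

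**Figure D4:**
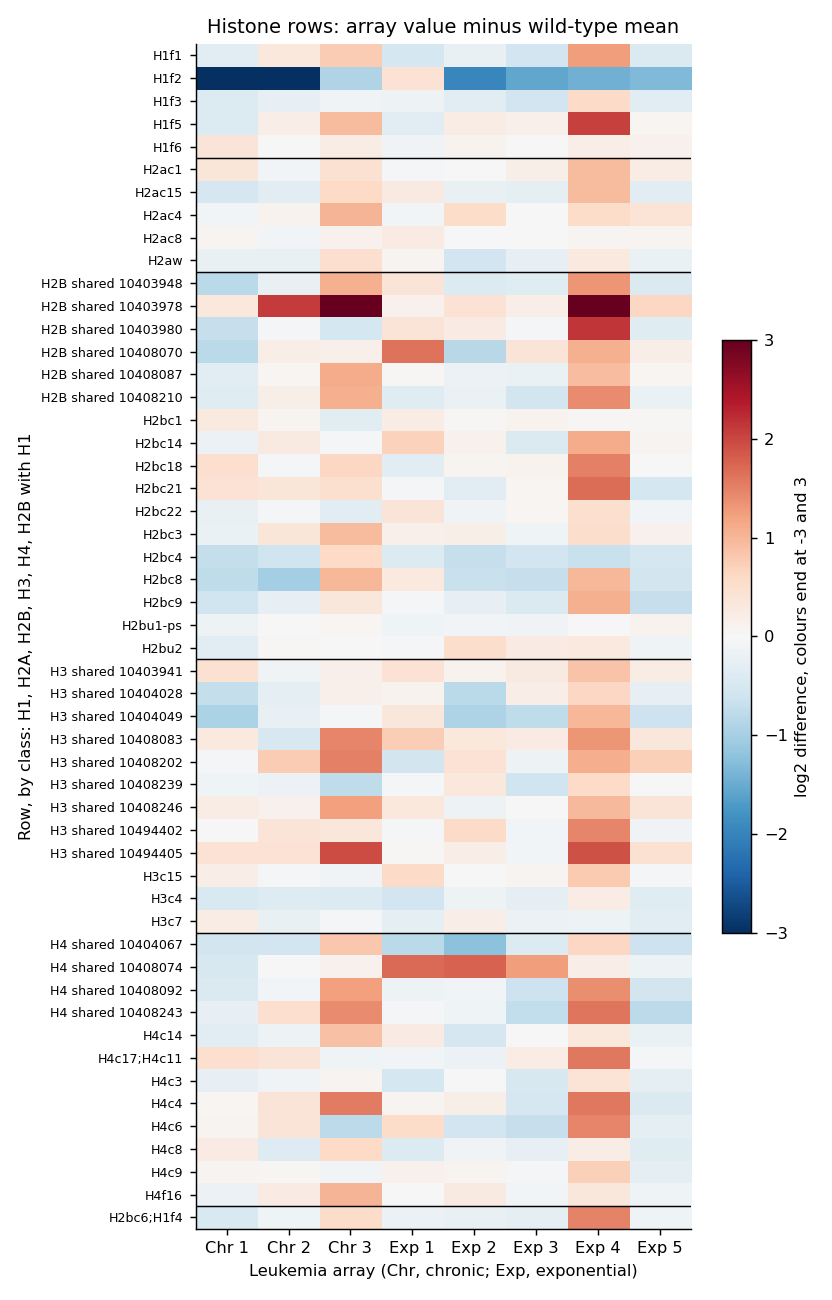
Log2 value of each of the 52 histone rows in each leukemia array minus the mean of the 3 wild-type arrays, ordered by class; red is above and blue below the wild-type mean, and the colours end at -3 and 3. The columns of Exp 4 and Chr 3 are mostly red, the H1f2 row is blue in every column but Exp 1, and a shared H4 row is red in Exp 1, Exp 2 and Exp 3.

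Among the linker histones, H1f2 (H1.2) had the largest group differences from wild type. It was at 7.63, 7.49 and 7.90 in the wild-type arrays, at 4.54, 4.65 and 6.78 in the chronic arrays and at 8.09, 5.71, 6.12, 6.22 and 6.35 in the exponential arrays. All 3 chronic arrays and 4 of the 5 exponential arrays lay below the wild-type range, and exponential replicate 1 lay above it. The log2 difference from wild type was -2.35 in chronic phase (SE 0.56, limma adjusted p = 0.182) and -1.17 in exponential phase (SE 0.46, limma adjusted p = 0.418), and -1.61 over all leukemias (SE 0.60, limma adjusted p = 0.327). None of these passed the threshold. Single arrays decided this: without chronic replicate 3 the chronic difference was -3.08 (limma adjusted p = 0.0158), and without exponential replicate 1 the exponential difference was -1.57 (limma adjusted p = 0.0173), both past the threshold. Each of these fits called 62 of all 22961 rows tested. H1f2 was higher by 1.18 in exponential than in chronic phase (SE 0.63, limma adjusted p = 0.827), with overlapping arrays. Its direction was negative against wild type under every alternative run.

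Of the other H1 rows, H1f5 and H1f1 had their 2 highest values in exponential replicate 4 and chronic replicate 3. H1f5 (H1.5) was at 3.29 to 3.51 in wild type, at 3.02, 3.63 and 4.38 in the chronic arrays, at 5.49 in exponential replicate 4 and at 3.08 to 3.65 in the other 4 exponential arrays. H1f1 (H1.1) was at 2.50 to 3.18 in wild type, at 2.60, 3.23 and 3.67 in the chronic arrays, at 4.16 in exponential replicate 4 and at 2.35 to 2.69 in the other exponential arrays. H1f3 (H1.3) was dim, at 2.81 in exponential replicate 4 and at 1.67 to 2.35 in the other 10 arrays, with wild-type replicate 3 second highest and chronic replicate 3 at 2.14. H1f6, the testis linker histone, stayed between 1.86 and 2.38 in all arrays and was highest in chronic replicate 1.

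**Figure D5:**
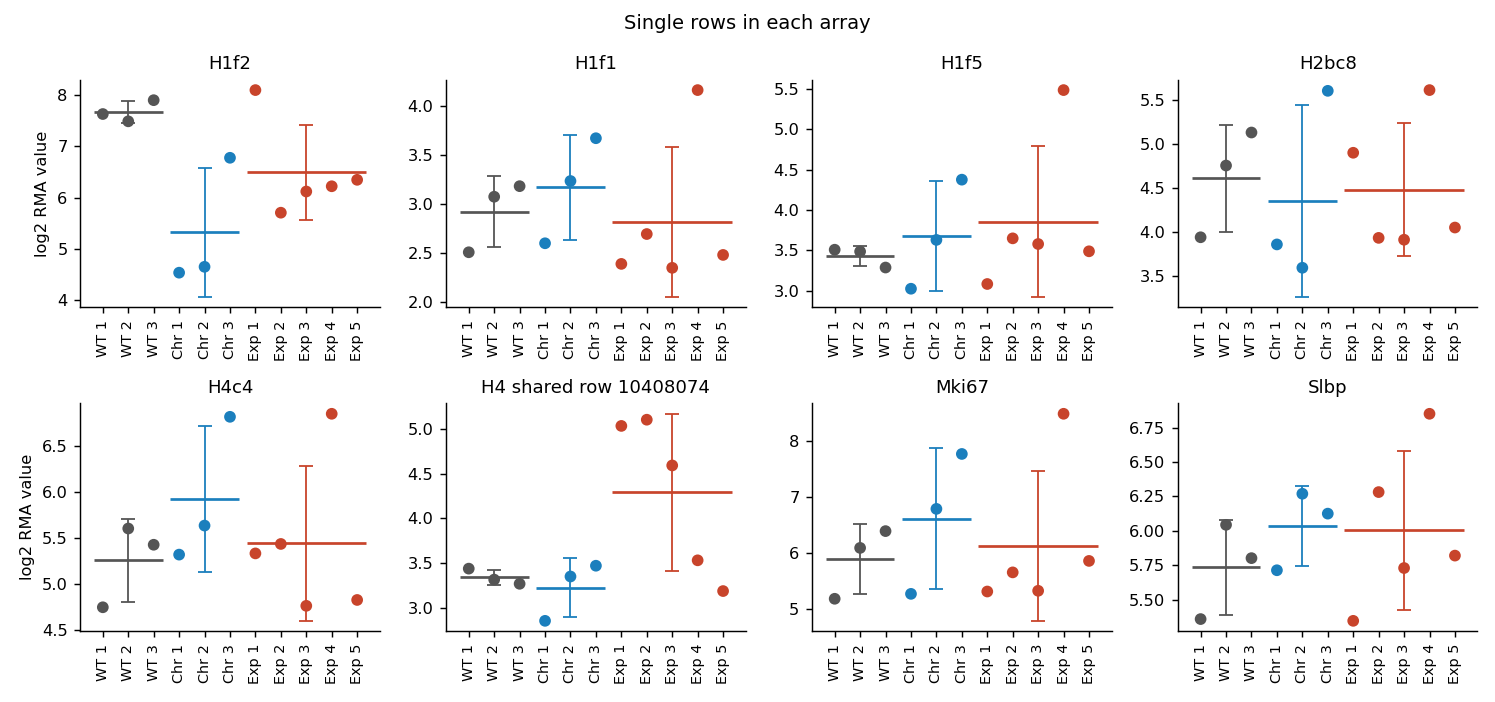
Log2 values in each of the 11 arrays for 6 histone rows and for Mki67 and Slbp, with group means (horizontal lines) and SD (vertical bars, n = 3, 3 and 5); each panel has its own vertical scale, which does not start at 0. H1f2 is lower in 7 of 8 leukemia arrays than in wild type, the shared H4 row is high in Exp 1 to Exp 3, and the other 6 panels have their highest point in Exp 4.

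Of the H2A rows, H2ac15 was at 2.89 to 3.22 in wild type, 3.66 in chronic replicate 3 and 4.02 in exponential replicate 4. H2ac1, the testis H2A, was at 2.46 to 2.65 in wild type, 3.01 in chronic replicate 3 and 3.50 in exponential replicate 4. H2aw, the row with the highest mean of the class, was at 4.63 to 4.74 in wild type, 5.20 in chronic replicate 3 and 4.99 in exponential replicate 4. These 3 rows shared the same 2 highest arrays. H2ac4 was highest in chronic replicate 3, at 2.62, and H2ac8 stayed between 1.61 and 1.99 in all arrays. The row left out of the list because it also names H2ax, the damage-signalling variant, did not stand out, at 2.51 in exponential replicate 4 and 2.74 in chronic replicate 3 against 2.00 to 3.27 in wild type.

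The H2B rows held the widest spread. The shared row 10403978 was at 2.22, 0.97 and 2.79 in wild type, at 2.31, 4.08 and 6.26 in the chronic arrays, at 5.45 in exponential replicate 4 and at 2.12 to 2.61 in the other 4 exponential arrays. Its log2 difference in chronic phase was 2.22 (SE 0.94, limma adjusted p = 0.455), with overlapping groups, and 1.20 without chronic replicate 3. Rows 10403980 and 10408087 name the same 15 genes. Row 10403980 was at 1.61, 2.25 and 1.79 in the chronic arrays, within its wild-type range of 1.61 to 3.29. It was at 4.45 in exponential replicate 4 and at 1.94 to 2.70 in the other exponential arrays. Row 10408087 was at 4.28 in chronic replicate 3 and 4.10 in exponential replicate 4, its 2 highest values. The single-gene row H2bc8 was at 3.94, 4.75 and 5.13 in wild type, at 3.86, 3.59 and 5.61 in the chronic arrays, and at 5.61 in exponential replicate 4, with 3.91 to 4.90 in the remaining exponential arrays. H2bc21 was at 4.82 in exponential replicate 4 and at 2.49 to 3.62 elsewhere. H2bc18 was at 3.77 there and at 1.93 to 2.88 elsewhere.

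Not all H2B rows followed these 2 arrays. H2bc4 was highest in wild-type replicate 3, at 3.46, with 3.14 in chronic replicate 3 and 1.82 to 2.37 in the other 9 arrays. The shared row 10408070, the brightest of the class, was at 7.57 in exponential replicate 1, 7.28 in wild-type replicate 1 and next highest in exponential replicate 4, and at 5.10 to 6.32 in the other 8 arrays. H2bc22 had the smallest p of the class between the phases, with means of 3.21 ± 0.27 (SD, n = 5) in exponential and 2.86 ± 0.14 (SD, n = 3) in chronic phase, a difference of 0.35 (SE 0.16, limma adjusted p = 0.795). Its highest array was exponential replicate 4, at 3.54, with 2.96 to 3.45 in the other exponential arrays. The difference without that array is not given.

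Of the H3 rows, the shared row 10404049 was the brightest, at 7.52, 7.76 and 7.13 in wild type, at 6.51, 7.24 and 7.41 in the chronic arrays, and at 8.46 in exponential replicate 4, with 6.56 to 7.81 in the remaining exponential arrays. The shared row 10494405 was at 2.64 to 3.02 in wild type, 3.31, 3.30 and 4.82 in the chronic arrays, 4.77 in exponential replicate 4 and 2.78 to 3.32 in the other exponential arrays. All 3 chronic arrays of that row lay above wild type, with a difference of 0.94 (SE 0.40, limma adjusted p = 0.453), which was 0.44 without chronic replicate 3. In chronic phase it was the only histone row with every array above wild type, where 8.29% of all rows were so.

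The shared H3 row 10408083 was at 3.28, 3.37 and 3.41 in wild type and at 4.08, 3.67, 3.61, 4.68 and 3.70 in the exponential arrays. All 5 exponential arrays lay above wild type, with a difference of 0.60 (SE 0.23, limma adjusted p = 0.414), and of 0.41 without exponential replicate 4. The dim shared row 10403941 also had all 5 above, at 1.39 to 2.14 against 1.18 to 1.37, a difference of 0.38 (SE 0.16, limma adjusted p = 0.481), and of 0.26 without exponential replicate 4. In exponential phase 3 histone rows had every array above wild type, where 3.52% of all rows were so. H3c4 went the other way in chronic phase, at 1.73 to 1.80 against 2.12 to 2.22 in wild type, a difference of -0.42 (SE 0.11, limma adjusted p = 0.21) in a row below the overall median. H3c4 and H1f2 were the 2 histone rows with every chronic array below wild type, where 7.4% of all rows were so.

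The H4 rows held both the array pattern and a departure from it. H4c4 was at 4.75, 5.60 and 5.42 in wild type, at 5.32, 5.63 and 6.81 in the chronic arrays, and at 6.85 in exponential replicate 4, with 4.76 to 5.43 in the remaining exponential arrays. The shared row 10408243, the brightest of the class, was at 5.98 to 6.70 in wild type, 7.80 in chronic replicate 3 and 7.99 in exponential replicate 4. The row naming H4c17 and H4c11 was at 3.33 in exponential replicate 4 and at 1.57 to 2.26 in the other 10 arrays.

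The shared H4 row 10408074 was high in other arrays. It was at 5.03, 5.10 and 4.59 in exponential replicates 1, 2 and 3, at 3.53 and 3.19 in exponential replicates 4 and 5, at 2.86, 3.35 and 3.47 in the chronic arrays and at 3.44, 3.32 and 3.27 in wild type. The difference was 1.06 between exponential and chronic phase (SE 0.45, limma adjusted p = 0.792) and 0.95 between exponential phase and wild type (SE 0.43, limma adjusted p = 0.517). It names the same 11 genes as 3 other rows, which had their 2 highest values in chronic replicate 3 and exponential replicate 4. With the replicate number of the labels as a block, the difference from wild type was 1.57 (SE 0.14, limma adjusted p = 0.0257), past the threshold. The block fit called 71 of all 22961 rows tested. Exponential replicates 4 and 5, which were low in this row, have no wild-type array of their number and so add nothing to that difference.

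The genes that act with these histones were taken from 5 lists. In histone mRNA transcription and 3′ end processing, limma called 0 of 14 measured genes in any of the 4 comparisons. The same held for 0 of 10 replication-independent histone variants, 0 of 15 histone chaperones, 0 of 44 genes of DNA replication and S phase, and 0 of 19 genes of G2 and M phase. At an unadjusted p under 0.05 in limma, 9 of the 44 S phase genes, 5 of the 19 G2 and M phase genes and 4 of the 14 histone mRNA factors were higher in chronic phase than in wild type and 0 lower, where 10.9% of all rows passed in either direction. In exponential phase it was 6, 0 and 1 higher and 0 lower, where 10.1% did. Without exponential replicate 4 it was 3, 0 and 2 higher and 2, 1 and 0 lower, where 11.3% did, and limma again called 0 in each of the 5 lists. At the same p in limma, 3 histone chaperones were higher and 0 lower in chronic phase, and 0 higher and 1 lower in exponential phase. Of the replication-independent variants 1 was higher and 1 lower in each phase. Without exponential replicate 4 the chaperones had 0 higher and 2 lower, and the variants 2 higher and 2 lower. The G2 and M phase genes had a median log2 difference from wild type of 0.67 in chronic phase, which was 0.29 without chronic replicate 3. In exponential phase it was 0.30, and it turned to -0.10 without exponential replicate 4. The S phase genes had medians of 0.22 in chronic and 0.18 in exponential phase, and of 0.25 and 0.08 without these arrays.

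By list medians, the G2 and M phase genes were highest in the same 2 arrays as the histone rows. The S phase genes were also highest in exponential replicate 4, but chronic replicate 3 was not second. The median over the 19 G2 and M phase genes was 5.56 in exponential replicate 4, 4.75 in chronic replicate 3, 4.03 in chronic replicate 2 and 2.98 to 3.53 in the other 8 arrays. By 1.5-fold or more above all 3 wild-type arrays were 18 of these 19 genes in exponential replicate 4 and 10 in chronic replicate 3, with 4 in chronic replicate 2 and 0 or 1 in the other 5 leukemia arrays. The median over the 44 S phase genes was 3.89 in exponential replicate 4, 3.75 in chronic replicate 2 and 3.64 in exponential replicate 2, while chronic replicate 3, at 3.42, lay within the wild-type range of 3.23 to 3.46. Of these genes 21 exceeded wild type by that margin in exponential replicate 4, 7 in chronic replicate 2, 6 in chronic replicate 3 and 0 to 3 in the other 5 leukemia arrays. The shares of all rows beyond that margin were 3.53%, 2.27%, 3.16% and 1.58 to 3% in the same order. Some S phase genes were thus higher in chronic replicate 3, although the list median was not. Mki67, a proliferation antigen, was at 5.18 to 6.39 in wild type, 5.27, 6.78 and 7.76 in the chronic arrays, 8.48 in exponential replicate 4 and 5.31 to 5.86 in the other exponential arrays. Top2a, the topoisomerase of dividing cells, was at 9.08 in exponential replicate 4 and 8.08 in chronic replicate 3, against 4.95 to 6.56 in wild type. Rrm2, the S phase subunit of ribonucleotide reductase, was at 6.16 in exponential replicate 4, 6.66 in chronic replicate 3 and 6.28 in chronic replicate 2, at 3.83 to 5.02 in the other 5 leukemia arrays and at 5.25 to 5.43 in wild type.

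Among the factors of histone expression, Slbp was at 6.85 in exponential replicate 4, at 5.71, 6.27 and 6.13 in the chronic arrays and at 5.35 to 6.28 in the other exponential arrays, against 5.36 to 6.04 in wild type. Casp8ap2, the FLASH protein of the histone locus body, was at 6.17 in exponential replicate 4 and 6.03 in chronic replicate 3, at 5.16 to 5.52 in the other 6 leukemia arrays and at 4.86 to 5.05 in wild type. Npat was above the wild-type range of 3.63 to 4.22 in all 8 leukemia arrays, at 4.59, 4.90 and 4.30 in the chronic arrays, 4.96 in exponential replicate 4 and 4.24 to 4.59 in the other exponential arrays. Npat and Casp8ap2 both lay above wild type in all 8, as did 397 of all 22961 rows tested. Chronic replicate 3 thus stood out in Casp8ap2 but not in Slbp or Npat. Lsm11, of the U7 particle that cuts histone pre-mRNA, was dim, between 1.81 and 2.80 in all arrays. Of the replication-independent variants, H2ax was at 5.49 in exponential replicate 4 and at 3.48 to 4.25 in the other 10 arrays, and the centromeric Cenpa at 4.92 and 3.58 to 4.09 likewise. H2az1 was at 9.75 in exponential replicate 4, 8.76 in chronic replicate 3 and 9.65 to 9.78 in wild type. The H3f3a row was dim, between 1.80 and 2.36 in all arrays against the overall median of 2.30. The dim Lsm11 and H3f3a rows may not follow the level of their genes. The chaperone subunit Chaf1b was at 2.38 to 2.92 in the leukemia arrays and 2.61 to 3.00 in wild type. Mcm5, of the replicative helicase, was at 3.94 in exponential replicate 4 and at 2.68 to 3.48 in the other 10 arrays.

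Some markers of other cells also stood out in exponential replicate 4. The median of the 8 measured erythroblast markers was 3.49 there, 2.29 to 2.42 in the other 4 exponential arrays, 2.26, 3.74 and 2.99 in the chronic arrays and 3.12 to 3.48 in wild type. Car1, a carbonic anhydrase of red cell precursors, was at 5.29 in exponential replicate 4, at 1.82 to 3.03 in the other exponential arrays and at 8.53 to 9.79 in wild type. Car2, Ermap, Rhag and Slc4a1 were also highest there among the exponential arrays. Klf1, Alas2 and Epor were not, at 2.17, 2.28 and 2.21. Against the wild-type arrays, 1 of the 8 was above all and 1 below all by 1.5-fold or more in exponential replicate 4. Of the 8 myeloid markers, 3 exceeded all wild-type arrays by 1.5-fold or more in each of the 5 exponential arrays, and 0 in each chronic array. S100a8, a calcium-binding protein of neutrophils, was at 7.89 in exponential replicate 4, 3.51 to 4.81 in the other exponential arrays and 1.76 to 2.25 in wild type. Its partner S100a9 was at 8.83, at 4.97 to 6.58 and at 2.57 to 3.13 in the same order, and the lysozyme Lyz2 at 6.36, at 4.84 to 6.05 and at 2.35 to 3.31. The neutrophil precursor genes Elane and Mpo were at 2.19 and 2.84 in exponential replicate 4, within their wild-type ranges. Itgam, Csf1r and Fcgr3 were at 2.09, 2.21 and 2.15 there, and in none of them was it the highest exponential array. The median of the 5 B-cell markers was 2.66 in exponential replicate 4 and 2.80 in chronic replicate 3 against 2.80 to 3.19 in wild type. The part of these markers, and of the low CD8 level of exponential replicate 4, in its histone values was not tested. In these bulk samples a larger share of cells in S phase and more histone RNA per cell cannot be told apart.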

How the data were processed

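Total RNA from spleen T-cells was measured on 11 arrays. The values were deposited as log2. Per the methods, background correction was by RMA and quantile normalization followed in the R package affy, with no version in the sources used here. Quantile normalization gives every array the same distribution, so a shift common to most genes cannot be seen. No detection calls were used, so the background level is unknown, and precision is limited by how few arrays there were. No genome build was named for the array's annotation.

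Groups were taken from the titles of the labels. Gene names came from the platform annotation, where 21640 rows had 1 symbol, 1321 several and 11799 none. No symbol started with Hist, so Entrez identifiers were matched to RefSeq synonyms (GRCm38.p6). Members and lists were chosen with earlier results of these data known. H3f3b and H1f0 had no row naming that gene alone and were not analysed here. Each comparison was fitted on its own arrays with limma 3.58.1 (lmFit, eBayes) in R 4.3.3 over 22961 rows with Benjamini-Hochberg adjustment, and called at an adjusted p under 0.05 and a fold of at least 1.5. The fit was also run on simulated data with known changes, and the share of these that it called is not given here. Lists are described by counts and medians, with no list test.

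Rows were named by rule: those called, in each class the 3 smallest p-values in all leukemias against wild type and in exponential against chronic phase, the highest mean and the largest SD, and 15 fixed companion genes. Not all rows of that rule are described above. Of those left undescribed, H2bc3, H4f16 and the shared H4 row 10404067 had their 2 highest values in chronic replicate 3 and exponential replicate 4. H2bu2, H3c15, H4c8 and the shared H3 row 10408239 did not. Other rows (H1f5, H2bc8, H2bc18, H2bc21, H4c4, the shared H2B row 10408087 and the rows with an unadjusted p under 0.05) were named after their values were seen. The same holds for Cd8a, Cd4 and every single T-cell, erythroblast and myeloid marker whose values are given. Where the text gives H2afx and H2afz their present symbols, these are H2ax and H2az1. Alternatives covered the samples in the fit, the replicate block, the rows tested, the dim-row filter, normalization, variance estimation, weights, the test, the fold threshold and each array left out.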

Additional observations from a re-analysis of the deposited data

Results flagged for a closer look

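In the 5 exponential arrays, the highest or lowest array was set against the others for 35 histone results (class medians and named rows), by whether its gap to the nearest array took up more of the group's range than the critical value of 0.71 allows. Chance flags about 1 in 20 groups, and 7.66% of all rows had such an array. It was found in 11 of the 35 results, and in 10 of these the far array was exponential replicate 4, on the high side; these results include rows named for a large SD and medians that repeat a row. Over all 52 histone rows, 13 had a far array on the high side, 12 of them exponential replicate 4, and 0 on the low side, while over all rows tested that array was so in 2.07%.

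The far values of exponential replicate 4 were the median of all histone rows at 4.11 (others 2.73 to 2.85), the H1 median at 4.16 (2.35 to 2.69), the H2A median at 3.50 (2.50 to 2.75), the H2B median at 4.45 (2.66 to 3.11) and the H4 median at 3.83 (2.71 to 3.02). Among single rows it was far in H1f1 at 4.16, H2ac1 at 3.50 (2.50 to 2.77), the shared H2B row 10403978 at 5.45 (2.12 to 2.61), the shared H3 row 10494405 at 4.77 (2.78 to 3.32) and the row naming H4c17 and H4c11 at 3.33 (1.57 to 1.98). The H1 median and H1f1 are the same values, since H1f1 was the middle row of its class there. In H1f2 the far array was exponential replicate 1, at 8.09 against 5.71 to 6.35. These rows share genes and an array, so they are not separate pieces of evidence. Exponential replicate 4 is also the array that went against its CD8+ label, and the part of this in the histone values was not tested. Chronic replicate 3 was in a group of 3, to which this comparison was not applied.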

How the results depend on the processing

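The number of histone rows called was 0 in each comparison and stayed at 0 in all 44 fits that kept every array, had no replicate block and changed 1 other choice. With the replicate number as a block, 1 row was called in exponential phase against wild type, the shared H4 row 10408074, and 0 in the other 3 comparisons. The fit with that call called 71 of all 22961 rows tested. In that block exponential replicates 4 and 5 have no partner of their number, so they do not enter the difference. Leaving out each array in turn gave 0 to 1 rows called in chronic phase against wild type and 0 to 1 in exponential phase against wild type. The row called was H1f2 without chronic replicate 3, and H1f2 without exponential replicate 1. Each of these fits called 62 of all 22961 rows tested. Leaving out arrays gave 0 histone rows in the other comparisons. Same-numbered arrays of different groups deviated together with correlations of -0.05 to 0.17 over rows. Arrays of unlike number were not compared, so these values cannot say whether the replicate numbers pair the samples. The block changed no other call of a histone row. Over all rows it called 12 in chronic phase against wild type, where the main fit called 45. In exponential phase it called 71, where the main fit called 97. The median log2 differences moved by less than the spread between arrays under every alternative run, but their signs did not hold. With arrays left out, they ran from -0.08 to 0.13 (chronic against wild type), -0.06 to 0.18 (exponential against wild type), -0.18 to 0.14 (exponential against chronic) and -0.003 to 0.16 (all leukemias), the lowest of the last without exponential replicate 4. With every array and no block they ran from 0.01 to 0.08, -0.003 to 0.12, -0.04 to 0.04 and 0.02 to 0.13 in the same order, and under the block they were 0.02, -0.08, -0.16 and 0.05. By the methods' t-test at an unadjusted p under 0.05 and the same fold, H1f2 was the 1 histone row in chronic phase (3.19% of all rows) and in all leukemias (2.99%). Dim rows, shared probes and 3 arrays in the smaller groups limit what could be resolved.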
